A study of Mus musculus with 31 samples.

Results

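The synaptotagmin genes described here were the 10 genes Syt1, Syt2, Syt3, Syt4, Syt5, Syt7, Syt11, Syt13, Syt16 and Syt17, out of the 48709 genes counted in each mouse. They were chosen by name, around Syt4. Syt4 was picked because it had the smallest genotype p among the genes that were higher in CYFIP1 OE mice in this same experiment, so every genotype value of the 10 genes is given below as a description without a test. All 10 passed the filter on low counts (10 reads or more in 20% of the mice or more).

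Synaptotagmins are membrane-trafficking proteins with a pair of C2 domains, modules that in many family members bind calcium, phospholipids and the SNARE proteins that fuse vesicles with the plasma membrane. In neurons the best known members are the calcium sensors of synaptic vesicles, while others sit on dense-core vesicles, on endosomes or on the Golgi. Syt4 and its close relative Syt11 are unusual in that a calcium-binding residue of the first C2 domain is replaced, and Syt4 is known from vesicles that carry neuropeptides and BDNF.

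RNA was taken from punches of the basolateral amygdala (BLA), the region of the temporal lobe where fear memories form, of 31 mice, 1 library per mouse, from both hemispheres combined. The 15 CYFIP1 OE mice carried a human CYFIP1 bacterial artificial chromosome that had been injected into C57BL/6N zygotes. The paper describes the WT mice, 16 here, as wild-type littermates, while the labels do not name litters. The mice belonged to the transgenic lines labelled 1 and 3, each descended from a single founder, so that a line effect and an effect of its insertion site cannot be told apart. The line labelled 1 had 8 WT mice aged 59 to 61 days (4 males, 4 females) and 7 CYFIP1 OE mice aged 59 to 77 days (3 males, 4 females), and the line labelled 3 had 8 WT mice aged 58 to 60 days (4 males, 4 females) and 8 CYFIP1 OE mice aged 58 to 64 days (4 males, 4 females).

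Total counts ranged from 5286708 to 8685308 per mouse. 1 CYFIP1 OE male of line 3 stood apart from all others, with a standardized connectivity Z-score of -4.74 (a measure of how well a profile correlates with the other profiles) against -1.18 for the next lowest. The main results that change without this mouse are given with and without it. Endogenous mouse Cyfip1 was at 33.5 ± 4.48 CPM (SD, n = 16) in WT mice against 33.0 ± 3.66 CPM (SD, n = 15) in CYFIP1 OE, which does not measure the human transgene. All 10 excitatory neuron markers were detected, but the BLA marker Rspo2 ranged only from 0 to 16.1 CPM. The summed level of the 9 detected striatal neuron markers ranged from 282 to 6351 CPM. That of the 3 detected choroid plexus markers ranged from 16.4 to 8314 CPM in WT and from 28.9 to 4692 CPM in CYFIP1 OE mice. The punches thus differed in makeup. In such bulk tissue fewer cells of a type and less RNA per cell cannot be told apart. With sex and line in the model, 0 of 17428 genes passed an adjusted p of 0.05 for genotype by edgeR's quasi-likelihood test, while 750 had an unadjusted p under 0.05 and 51 (0.293%) a p under 0.005. DESeq2 also called 0, with 814 at an unadjusted p under 0.05.

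QuantSeq counts the 3′ end of each transcript once, so that CPM (reads of a gene scaled to a common library size, with TMM) can be set side by side between genes without a correction for length. Syt1, the fast calcium sensor of synaptic vesicles, was the most abundant member at 1176 ± 261 CPM (SD, n = 31). Syt11, which has been tied to endocytosis and vesicle recycling, followed at 777 ± 65.1 CPM. Together they took 46.9% and 31.8% of the reads of the 10 genes.

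Syt7, a slower and more calcium-sensitive sensor, was at 172 ± 47.4 CPM and Syt4 at 142 ± 28.5 CPM (SD, n = 31). These formed a middle tier, and Syt4 ranked 3 or 4 among the 10 genes in every mouse. Syt5, a calcium-binding member found on dense-core vesicles, was at 56.9 ± 13.8 CPM, and Syt13, a member without the calcium-binding residues, at 53.6 ± 21.4 CPM.

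The lowest tier held Syt16 at 28.6 ± 8.38 CPM, Syt2 at 26.7 ± 15.2 CPM, Syt3 at 23.2 ± 7.72 CPM and Syt17 at 22.3 ± 18.1 CPM (SD, n = 31). Syt2 is the fast sensor of the hindbrain, the spinal cord and some interneurons, Syt3 is a high-affinity sensor found at postsynaptic sites, Syt16 is thought not to bind calcium, and Syt17 lacks a transmembrane segment. Some neighbours in this order could not be separated: Syt16 exceeded Syt2 in 17 of 31 mice, Syt2 exceeded Syt3 in 19 and Syt3 exceeded Syt17 in 20. Syt5 exceeded Syt13 in 20 of 31 mice and Syt7 exceeded Syt4 in 24. In contrast, Syt11 was above Syt7 and Syt4 above Syt5 in all 31 mice, and Syt1 was above Syt11 in 29.

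**Figure D1:**
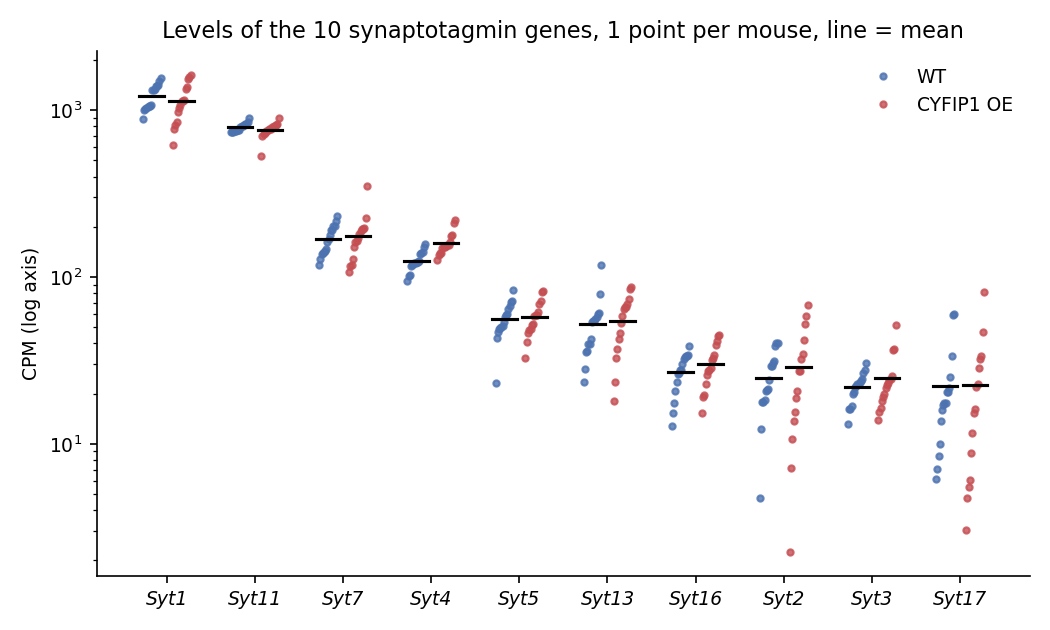
Levels of the 10 synaptotagmin genes in CPM on a log axis, ordered by mean level, with WT mice in blue, CYFIP1 OE mice in red and 1 point per mouse. The black line is the group mean. Syt1 and Syt11 lie far above the others, Syt7 and Syt4 form the middle, and Syt2 and Syt17 spread most between mice.

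The genes also differed in how much they varied between mice. Syt11 was the steadiest, with a coefficient of variation of 8.37% over the 31 mice, and Syt4 came next with 20.1%. Syt17 varied most, at 81.2%, from 3.04 to 81.0 CPM, and Syt2 varied by 56.7%, from 2.25 to 68.2 CPM. Both were nevertheless counted in every mouse, with at least 14 reads for Syt2 and 16 for Syt17. The counts of Syt1, Syt11 and Syt17 had decimals in 100% of the mice, so that part of their reads had been assigned by estimation, against 29.0% for Syt4 and 3.2% for Syt5 and Syt16.

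The question the family was set out to answer was how Syt4 (ENSMUSG00000024261, GRCm38 chromosome 18, 31437808 to 31447406, minus strand, protein coding) differed between genotypes beside its paralogs. In the line labelled 1, Syt4 ranged from 94.5 to 157 CPM with a median of 119 in the 8 WT mice, and from 126 to 212 CPM with a median of 149.9 in 7 CYFIP1 OE mice. In the line labelled 3, it ranged from 103 to 151 CPM in 8 WT mice (median 124), and from 135 to 218 CPM with a median of 159 in 8 CYFIP1 OE mice, or up to 179 CPM without the mouse of low connectivity. The ranges overlapped in both lines, more so in the line labelled 1, where 1 of 7 CYFIP1 OE mice exceeded the highest WT mouse, against 7 of 8 in the line labelled 3. All 15 CYFIP1 OE mice lay above the mean of the WT mice.

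**Figure D2:**
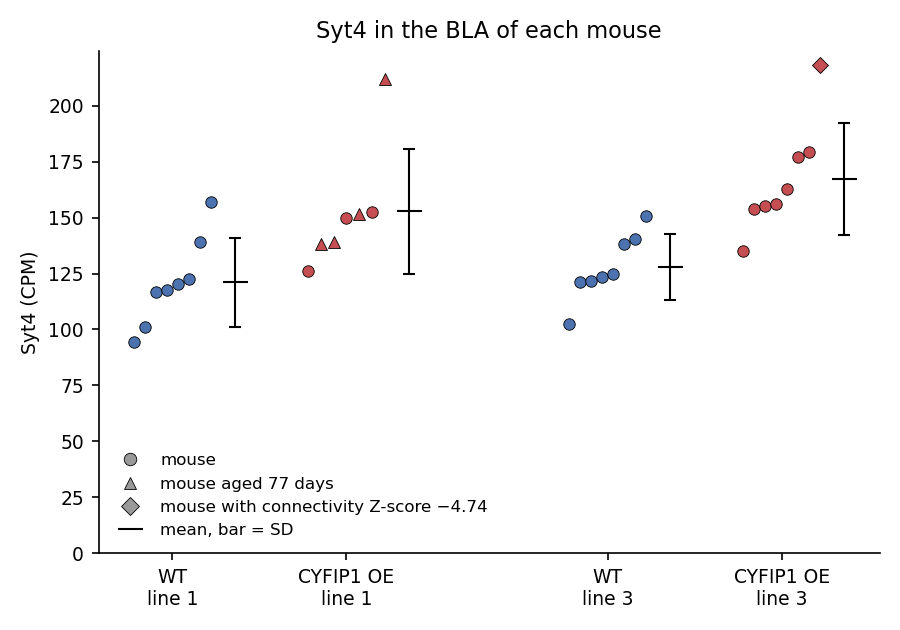
Syt4 in CPM in each mouse, by genotype and line, with the mean and SD of each group beside the points. Triangles are mice aged 77 days and the diamond is the mouse with a connectivity Z-score of -4.74. The CYFIP1 OE points sit higher in both lines, and the highest point of each CYFIP1 OE group, at 212 and 218 CPM, stands off from the rest.

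The WT mean was 124 ± 17.3 CPM (SD, n = 16) and the CYFIP1 OE mean 160.5 ± 26.4 CPM (SD, n = 15), a log2 fold change of 0.36 ± 0.08 (SE from the fit with sex and line). The difference was 0.34 ± 0.13 in the line labelled 1 alone and 0.39 ± 0.11 in the line labelled 3 alone (SE). In the line labelled 1, 7 of the 8 WT mice shared a sample-name prefix that no CYFIP1 OE mouse had. The only name group of that line with both genotypes held 1 WT female and 1 CYFIP1 OE male. Genotype and name group can therefore hardly be told apart in the line labelled 1. The line labelled 3 minus the line labelled 1 came to 0.05 ± 0.17 on the log2 scale (SE), given without a test since the choice of Syt4 rested on both lines.

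The values of Syt4 in subsets of the mice are given as a description, since Syt4 was chosen for its difference over all of them. Without the mouse of low connectivity, which had the highest Syt4 level of all, the log2 fold change was 0.33 ± 0.08, and without the 4 mice aged 77 days, all CYFIP1 OE mice of the line labelled 1, it was 0.34 ± 0.09. Age and genotype cannot be told apart for those 4 mice. The other 3 CYFIP1 OE mice of the line labelled 1 were at 143 ± 14.5 CPM (SD), from 126 to 152 CPM. They all lay within the range of the WT mice of that line, 94.5 to 157 CPM. Among the 5 groups of mice whose sample names share a prefix and that held both genotypes, Syt4 was higher in CYFIP1 OE in 5 of 5, with log2 ratios from 0.04 to 0.91, and in 9 of 9 CYFIP1 OE mice it was above the WT mean of the same group. In the fit restricted to those 18 mice, with the name group as a term, it was 0.42 ± 0.12 (SE). There Syt3 had a larger log2 fold change than Syt4, at 0.50 ± 0.21 (SE), and was higher in CYFIP1 OE in 4 of 5 groups and in 7 of 9 mice. That fit included the mouse of low connectivity, in whose group the log2 ratio was 1.21 for Syt3 and 0.91 for Syt4.

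The 9 paralogs had log2 fold changes from -0.09 to 0.25. Their median was 0.06, against -0.00532 over all 17428 genes, so that Syt4 stood 0.31 above the median of its paralogs. Relative to the summed CPM of the 10 genes, Syt4 made up 5.01% ± 0.735 in WT and 6.63% ± 1.17 in CYFIP1 OE (SD, n = 16 and 15), while the sum itself was 2499 ± 246 CPM in WT and 2456 ± 383 CPM in CYFIP1 OE.

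Syt1, Syt2 and Syt5, all calcium-binding members, had differences smaller than their spread between mice. Syt1 was at 1212 ± 210.0 CPM in WT and 1137 ± 309 CPM in CYFIP1 OE, a log2 fold change of -0.09 ± 0.12 (SE). Syt2 was at 24.9 ± 10.1 and 28.8 ± 19.4 CPM, with 0.25 ± 0.31 (SE), and Syt5 at 56.2 ± 13.9 and 57.5 ± 14.2 CPM, with 0.03 ± 0.13 (SE).

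The slower, high-affinity sensors depended on the mouse of low connectivity. Syt7 was at 169 ± 34.2 CPM in WT and 176 ± 59.4 CPM in CYFIP1 OE, a log2 fold change of 0.06 ± 0.13 (SE) that became -0.04 ± 0.11 without the mouse of low connectivity. Syt3 was at 21.8 CPM in WT and 24.6 CPM in CYFIP1 OE, with coefficients of variation of 21.2% and 40.7% and a log2 fold change of 0.18 ± 0.15 (SE), or 0.06 ± 0.13 without that mouse.

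Syt11, the closest relative of Syt4 in the family, had a log2 fold change of -0.05 ± 0.06 (SE), from 789 ± 47.0 CPM in WT to 764 ± 79.7 CPM in CYFIP1 OE. Among the members without calcium binding, Syt13 was at 52.5 ± 22.4 CPM in WT and 54.8 ± 21.1 CPM in CYFIP1 OE, with a log2 fold change of 0.08 ± 0.20 (SE). Syt16 was at 27.1 ± 7.44 and 30.3 ± 9.24 CPM, with 0.15 ± 0.14 (SE). Syt17 was at 22.1 ± 16.1 and 22.6 ± 20.6 CPM, with 0.03 ± 0.38 (SE), and moved to -0.28 ± 0.35 without the mouse of low connectivity. The standard errors of Syt2 and Syt17 are about as wide as the difference of Syt4 itself, so that their differences are poorly known.

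**Figure D3:**
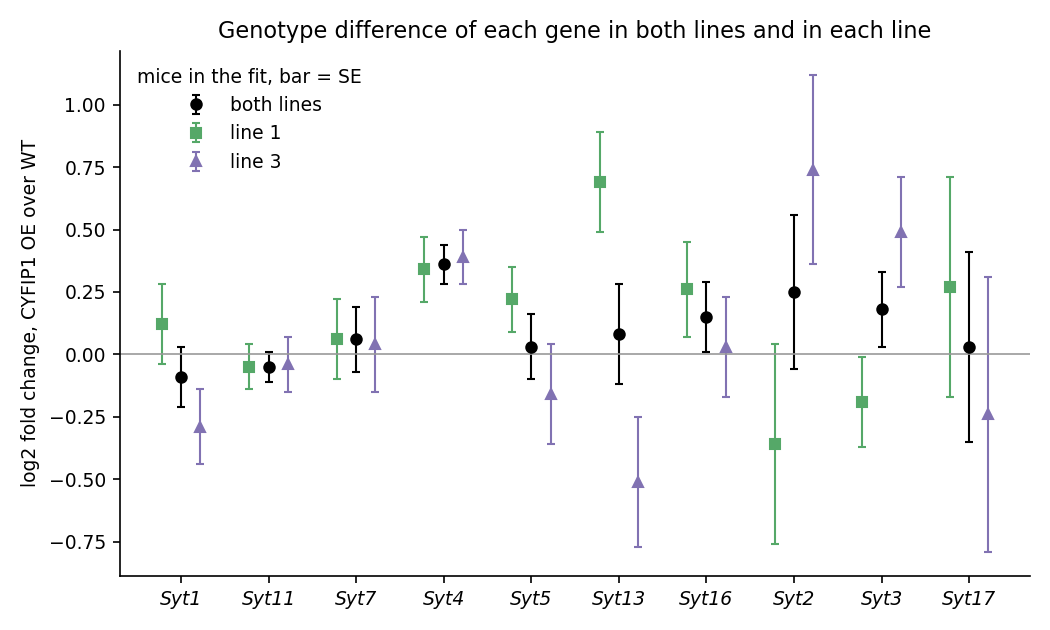
Log2 fold change of CYFIP1 OE over WT for each gene, ordered by level, from the fit of both lines (black), of the line labelled 1 (green) and of the line labelled 3 (purple), with SE bars. Syt4 is near 0.36 in all 3 fits, whereas Syt13, Syt2, Syt3 and Syt1 lie on opposite sides of 0 in the lines.

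Fitted line by line, Syt4, Syt7, Syt11 and Syt16 had the same sign in both lines, and the other 6 members had opposite signs. Opposite signs were common in these mice, at 54.4% of all 17428 genes. The widest gap was that of Syt13, at 0.69 ± 0.20 (SE) in the line labelled 1 and -0.51 ± 0.26 (SE) in the line labelled 3. Syt2 was at -0.36 ± 0.40 and 0.74 ± 0.38, Syt3 at -0.19 ± 0.18 and 0.49 ± 0.22, and Syt1 at 0.12 ± 0.16 and -0.29 ± 0.15 (SE). Genotype and name group overlap in the line labelled 1, which limits these values and the interactions below.

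Tested as an interaction of genotype and line, 0 of the 9 paralogs passed an adjusted p of 0.05 (edgeR), as did 0% of all genes. At an unadjusted p under 0.05 there were 2 paralogs, against 8.10% of all genes. Syt13 differed between the lines by -1.22 ± 0.35 on the log2 scale (SE, edgeR p = 0.00147, adjusted p = 0.527) and Syt3 by 0.65 ± 0.29 (SE, edgeR p = 0.0332, adjusted p = 0.577). Without the mouse of low connectivity Syt3 was at 0.48 ± 0.25 (SE, edgeR p = 0.0693, adjusted p = 0.524), and Syt13 at -1.30 ± 0.35 (SE, edgeR adjusted p = 0.227). Syt2, at 1.02 ± 0.59 (SE, edgeR p = 0.0934, adjusted p = 0.691), went to 1.16 ± 0.56 without that mouse (SE, edgeR p = 0.0464, adjusted p = 0.47) and to 1.33 ± 0.59 without the mice aged 77 days (SE, edgeR p = 0.0315, adjusted p = 0.874). DESeq2 on all mice called 0 paralogs and had the same 2 at an unadjusted p under 0.05.

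The levels behind the Syt13 value differed already among the WT mice. Syt13 ranged from 23.5 to 57.8 CPM (median 39.7) in the 8 WT animals of the line labelled 1, and from 35.7 to 118 CPM (median 58.2) in those of the line labelled 3. In CYFIP1 OE mice the order was turned around, with 32.5 to 87.0 CPM and a median of 68.8 in the line labelled 1 and 18.0 to 65.9 CPM and a median of 47.8 in the line labelled 3. All 4 ranges overlapped.

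Over all 31 mice, 0 members passed an adjusted p of 0.05 for the difference between lines (0% of all genes did), and 0 had an unadjusted p under 0.05, against 3.31% of all genes, with the same counts of members by DESeq2. Among the 16 WT mice alone, 0 members passed the adjusted p (again 0% of all genes), while 4 members had an unadjusted p under 0.05, against 6.07% of the 17666 genes tested there. Syt1 was higher in the line labelled 3 by 0.37 ± 0.10 on the log2 scale (SE, edgeR adjusted p = 0.639), and Syt13 by 0.69 ± 0.21 (SE, adjusted p = 0.72). Syt2 differed by -0.70 ± 0.26 (SE, edgeR adjusted p = 0.772) and Syt3 by -0.36 ± 0.14 (SE, adjusted p = 0.78). Of the 8 WT mice of the line labelled 1, 7 shared a name prefix and an age of 61 days, so that line and this group of mice cannot be told apart among WT mice.

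The striatal markers also differed in median between the groups of genotype and line. Their summed level had a median of 4031 CPM in WT mice of the line labelled 1 and 2632 CPM in WT mice of the line labelled 3, and of 2589 CPM and 3983 CPM in CYFIP1 OE mice of the same lines. The 2 groups with the higher striatal medians also had the higher Syt2 means, at 30.8 and 31.4 CPM against 19.0 and 25.7 CPM, and the lower Syt13 medians. The part of tissue makeup in these differences was not tested. The fits that follow are a description, since their added scores come from the same libraries and were chosen after the data were seen. When the striatal and excitatory neuron scores were added to the model, the interaction of Syt13 was -0.61 ± 0.22 (SE, edgeR p = 0.00868, adjusted p = 0.841). That of Syt2 was -0.01 ± 0.38 (SE, edgeR p = 0.976, adjusted p = 0.998). That of Syt3 was larger than before, at 0.80 ± 0.30 (SE, edgeR p = 0.0104, adjusted p = 0.841). The line difference of Syt13 among WT mice was 0.02 ± 0.12 (SE, edgeR adjusted p = 0.998). With the same terms Syt2 differed between the lines by -0.18 ± 0.21 and Syt1 by 0.22 ± 0.11 among WT mice (SE, edgeR p = 0.399 and 0.056). Syt3 went to -0.58 ± 0.17 (SE, edgeR p = 0.00201). The edgeR adjusted p was 0.998 for each of them. Syt17 turned from 0.39 ± 0.39 to -0.69 ± 0.31 (SE, edgeR p = 0.328 and 0.0374, adjusted p = 0.949 and 0.998).

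**Figure D4:**
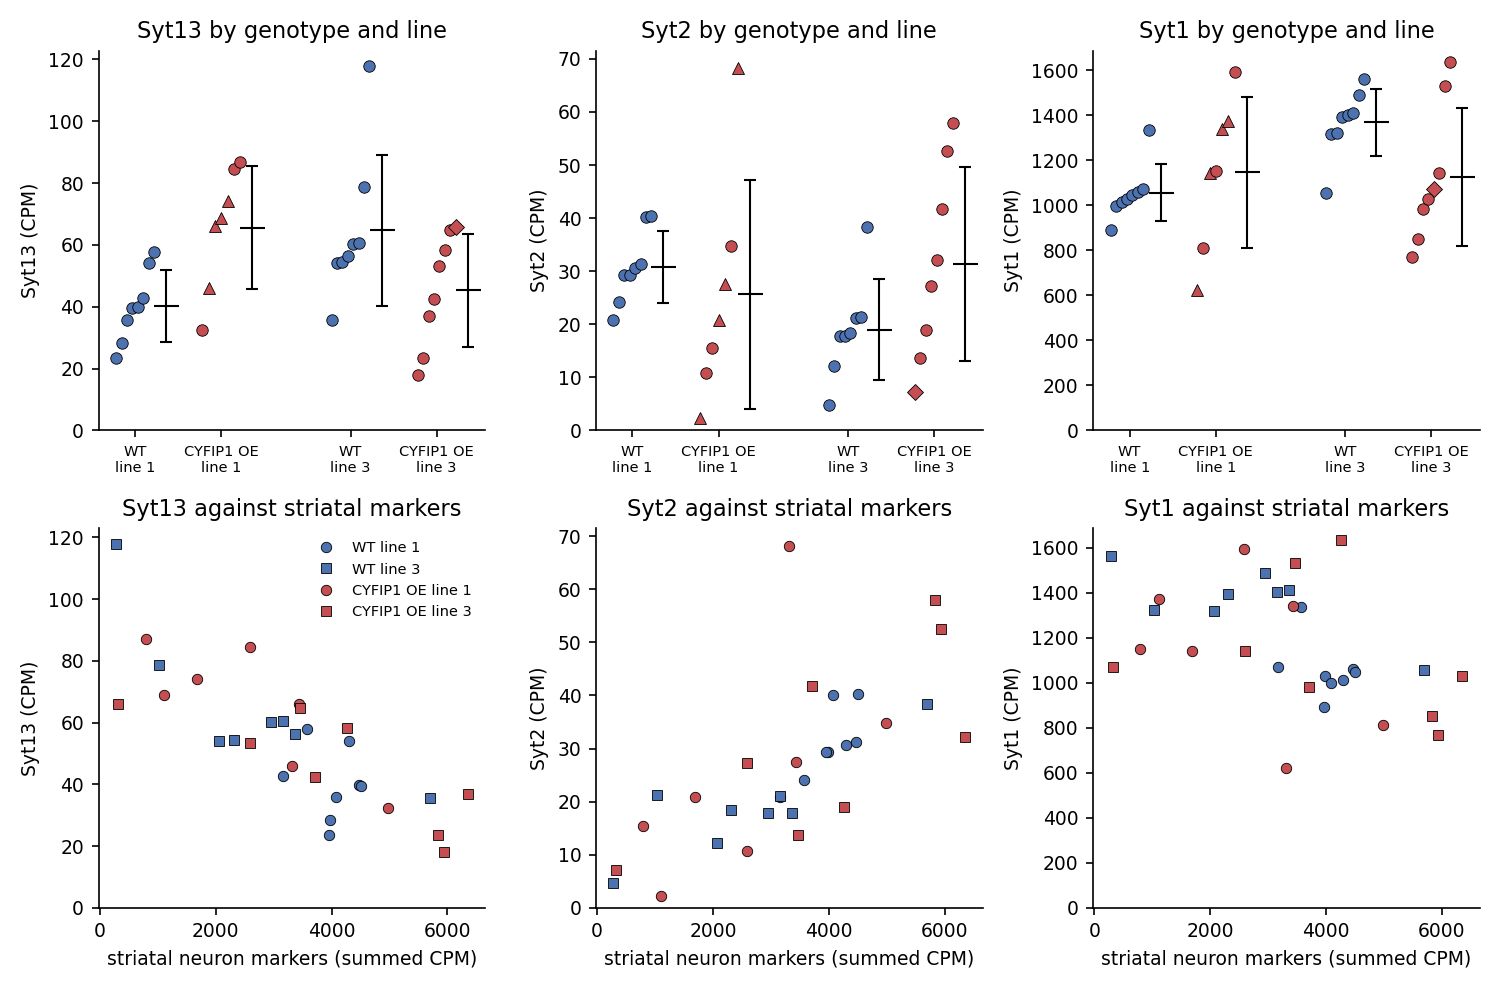
Top: Syt13, Syt2 and Syt1 in CPM in each mouse by genotype and line, with mean and SD beside the points (triangles are mice aged 77 days, the diamond is the mouse with a connectivity Z-score of -4.74). Bottom: the same genes against the summed CPM of the striatal neuron markers, 1 point per mouse, where Syt13 falls and Syt2 climbs along the axis.

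By sex, 0 of the 10 members passed an adjusted p of 0.05, against 0.0631% of all genes, and 1 had an unadjusted p under 0.05, against 4.62%. That was Syt16, with a log2 difference of males over females of -0.35 ± 0.14 (SE, edgeR adjusted p = 0.97). Syt4 differed between males and females by -0.01 ± 0.08 (SE, edgeR adjusted p = 0.998).

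Because the punches differed in makeup, each member was compared with the scores of 11 marker lists (cell types, nearby brain regions, activity-induced genes), after sex, line and genotype had been removed from both. A score is the mean of the standardized log2 CPM of a list. Of the 110 relations, 38 passed an adjusted p of 0.05 (permutation test, two-sided, 100000 draws, Benjamini-Hochberg over the 110). Other genes were not tested against these scores, so that the share of all genes that would pass is not known. All values share the libraries of the same 31 mice, and the relations do not say in which cells a gene is expressed. Without the mouse of low connectivity, 9 of the 38 no longer passed and 6 others did. Those lost were Syt3, Syt4, Syt7 and Syt11 with the pan-neuronal score, Syt5 and Syt16 with interneurons, Syt3 with immediate early genes, Syt7 with striatal markers and Syt11 with oligodendrocytes, with an adjusted permutation p from 0.0733 to 0.29. Those gained included Syt4 with the choroid plexus score, from r = -0.298 to -0.47 (adjusted permutation p = 0.182 and 0.0267).

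**Figure D5:**
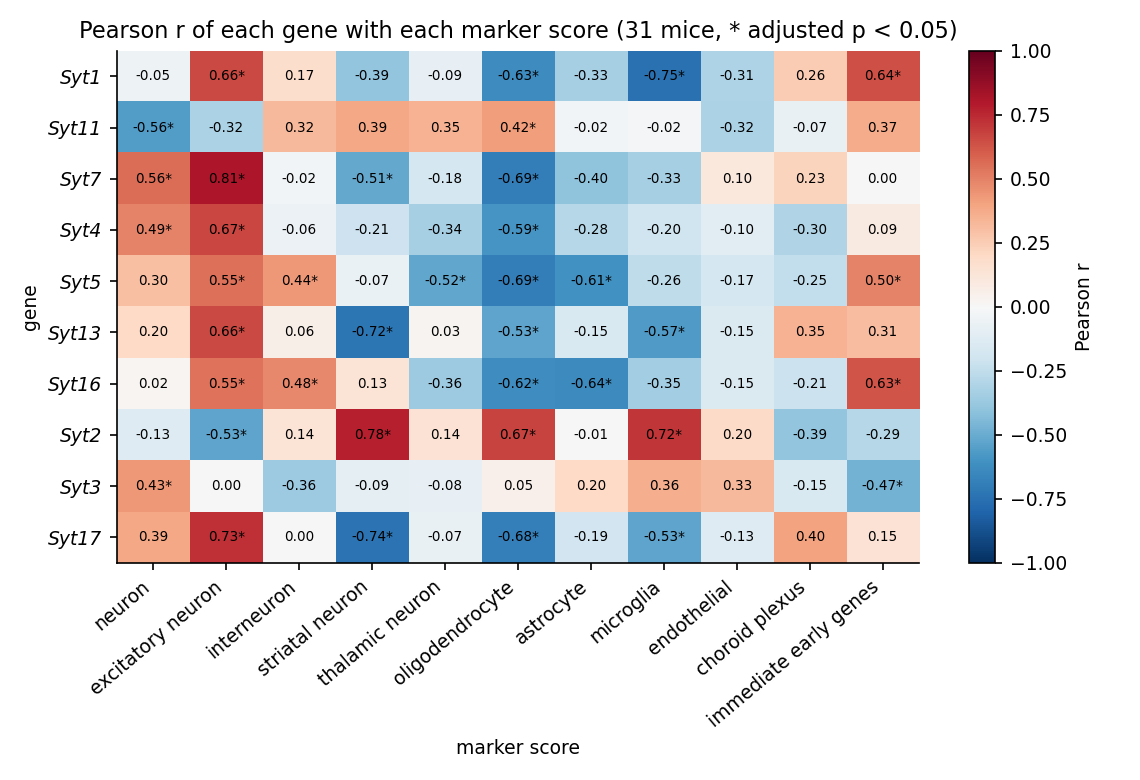
Pearson r of each synaptotagmin gene (rows, ordered by level) with each marker score (columns) over 31 mice, after removal of sex, line and genotype, from blue (negative) to red (positive). A star marks an adjusted p under 0.05. The excitatory neuron column is positive for 7 of the starred genes and negative for Syt2, and the oligodendrocyte column is negative for those 7 and positive for Syt2 and Syt11.

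Syt4 followed the excitatory neuron markers. Its r with their score was 0.665 (permutation p = 0.0001, adjusted p = 0.000786) and its Spearman rho 0.622 (adjusted p = 0.00162), with r = 0.605 after the 2 mice farthest from the median score were left out, and r = 0.704 and 0.633 within the lines labelled 1 and 3. With the oligodendrocyte score its r was -0.59 (permutation p = 0.00045, adjusted p = 0.00236), its rho -0.541 (adjusted p = 0.00711), and r = -0.467 without the 2 farthest mice, with -0.623 and -0.614 within the lines. With the pan-neuronal score its r was 0.495 (permutation p = 0.00449, adjusted p = 0.0154), but rho was 0.362 (adjusted p = 0.112). That r fell to 0.308 without the 2 farthest mice, so that this relation depends in part on those mice. It was 0.51 and 0.68 within the lines labelled 1 and 3, and 0.649 in WT against 0.349 in CYFIP1 OE mice. Without the mouse of low connectivity its r was 0.37 (adjusted permutation p = 0.115).

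These scores were therefore set beside the genotype difference of Syt4. The summed excitatory neuron markers ranged from 1748 to 4124 CPM in WT (median 2982) and from 2076 to 7000.3 CPM in CYFIP1 OE (median 3137). Nrgn and Camk2a, at means of 1860.3 and 748 CPM over all mice, made up most of this sum. Slc17a7 alone ranged from 3.01 to 468 CPM in WT and from 20.6 to 1109 CPM in CYFIP1 OE. The summed oligodendrocyte markers ranged from 1519.9 to 9210.1 CPM in WT (median 3589) and from 1171 to 5361 CPM in CYFIP1 OE (median 2569). None of the 11 scores differed between genotypes at an adjusted p of 0.05, and the smallest p was 0.0578 (two-sided permutation test, adjusted p = 0.397), for immediate early genes. With the excitatory neuron and oligodendrocyte scores as further terms, the log2 fold change of Syt4 was 0.34 ± 0.07 (SE). This value is a description, since Syt4 was chosen on this contrast and the terms were added after the data were seen. Whether tissue makeup has a part in the Syt4 difference was not tested.

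Syt7 was the member most tightly related to the excitatory neuron score, with r = 0.805 and rho = 0.869 (permutation p = 1e-05 for both, the smallest that 100000 resamples can give, adjusted p = 0.000183 and 0.00022) and r = 0.812 without the 2 farthest mice. Syt17, Syt1, Syt13, Syt5 and Syt16 also went with that score, at r = 0.73, 0.657, 0.657, 0.551 and 0.546, with rho from 0.604 to 0.748 and all 5 at an adjusted permutation p of at most 0.00673. Syt2 went the other way, at r = -0.531 (rho = -0.608, adjusted permutation p = 0.008 and 0.00162).

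Syt2 instead followed the striatal score, with r = 0.778 and rho = 0.773 (permutation p = 1e-05 for both, adjusted p = 0.000183 and 0.00022), r = 0.718 without the 2 farthest mice, and r = 0.685 and 0.871 within the lines labelled 1 and 3. Syt17 and Syt13 fell as the striatal score climbed, at r = -0.74 (rho = -0.715) and r = -0.722 (rho = -0.791), with an adjusted permutation p of 0.000183 for each r. Without the 2 farthest mice these were -0.655 and -0.722. Syt7 was also negative with the striatal score, at r = -0.513 (rho = -0.598, adjusted permutation p = 0.012 and 0.00233), or r = -0.351 without the mouse of low connectivity (adjusted permutation p = 0.129).

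Several glial relations were as tight. Syt1 was negative with the microglial score at r = -0.747 (rho = -0.783, adjusted permutation p = 0.000183 and 0.00022) and Syt2 positive at r = 0.717 (rho = 0.667, adjusted permutation p = 0.000367 and 0.000931). Within the lines labelled 1 and 3 the values were -0.849 and -0.483 for Syt1 and 0.814 and 0.432 for Syt2. Syt16 and Syt5 were negative with the astrocyte score, at r = -0.638 (rho = -0.641) and r = -0.609 (rho = -0.621), with an adjusted permutation p of 0.00088 and 0.00122 for r. Syt11 stood out as the member that was positive with oligodendrocytes beside Syt2, at r = 0.419 (adjusted permutation p = 0.0415), but its rho of 0.422 had an adjusted permutation p of 0.0551, and r was 0.38 without the mouse of low connectivity (adjusted permutation p = 0.104).

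The immediate early genes, which neurons switch on when active, went with Syt1 at r = 0.642 (rho = 0.66, adjusted permutation p = 0.000962 and 0.000931), Syt16 at r = 0.631 (rho = 0.548, adjusted permutation p = 0.0011 and 0.00585) and Syt5 at r = 0.498 (rho = 0.563, adjusted permutation p = 0.0154 and 0.00579). Syt4, a gene known to be induced by neuronal activity, had r = 0.0917 and rho = 0.221 with them (adjusted permutation p = 0.754 and 0.362). Its r was 0.305 without the 2 farthest mice, and 0.389 in WT against -0.102 in CYFIP1 OE mice. The negative r of Syt3 with this score, -0.47, went to -0.162 without the 2 farthest mice and so rests on them (rho = -0.345, adjusted permutation p = 0.0234 and 0.135).

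Among themselves, 21 of the 45 pairs of members were related at an adjusted p of 0.05 (permutation test, Benjamini-Hochberg over the 45), 11 of them positively and 10 negatively. Pairs of other genes were not tested, so that this count cannot be set against a share over all genes. Syt7 with Syt17 (r = 0.827, rho = 0.802), Syt13 with Syt17 (r = 0.816, rho = 0.808) and Syt1 with Syt13 (r = 0.766, rho = 0.854) were the tightest positive pairs, each at an adjusted permutation p of 0.000112. Without the 2 farthest mice they were at 0.787, 0.769 and 0.84. Syt5 and Syt16 formed a second pair, at r = 0.735 (rho = 0.74, adjusted permutation p = 0.00015), with 0.624 without the 2 farthest mice.

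Syt2 opposed the first set, with r = -0.803 to Syt17 (rho = -0.821), -0.706 to Syt1 (rho = -0.79) and -0.70 to Syt13 (rho = -0.785), at adjusted permutation p values for r of 0.000112, 0.000193 and 0.00015. Syt4 was related to 4 members, as were Syt13 and Syt17, while Syt7 was related to 7. Its closest were Syt7 at r = 0.551 (rho = 0.465, adjusted permutation p = 0.00495 and 0.0211), which was 0.411 without the 2 farthest mice and 0.449 without the mouse of low connectivity, and Syt5 at r = 0.474 (rho = 0.423, adjusted permutation p = 0.0194 and 0.0382). Its negative r with Syt11 of -0.438 rests on few mice, with rho = -0.254 (adjusted permutation p = 0.0366 and 0.223) and r = -0.203 without the 2 farthest or -0.254 without the mouse of low connectivity. With Syt2 its r was -0.421 (rho = -0.278, adjusted permutation p = 0.0419 and 0.178), or -0.276 without the 2 farthest mice and -0.352 without the mouse of low connectivity.

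Over the 31 mice and 8448 other genes with a mean of at least 10 CPM, the genes whose residual log2 CPM was most like that of Syt4 were Zfr (r = 0.718), Map2 (0.712), Ywhaz (0.712), Sqstm1 (0.706), Camsap2 (0.706) and Thrb (0.701), where r is Pearson's, given as a measure of likeness without a test. Map2 and Camsap2 encode microtubule proteins of neurons, Ywhaz a 14-3-3 adaptor and Sqstm1 an autophagy receptor. The least like were Rnf13 (-0.736), Zfp740 (-0.72) and Ppp1r14b (-0.719). The other members had closer neighbours, such as Sh3gl2 for Syt17 (r = 0.927), Olfm1 for Syt13 (0.914), Prkar1b for Syt7 (0.914) and Ncald for Syt1 (0.912).

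For Syt2 the gene most alike was Slc5a7, the choline transporter of cholinergic neurons (r = 0.877), and for Syt16 it was Enc1 (r = 0.858). For Syt5 it was Ldb2 (0.824), for Syt3 Pkm (0.802) and for Syt11 Tmeff1 (0.881).

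The partners of synaptotagmins in vesicle release were tested for genotype in the same fit. Of 83 genes listed, 77 passed the filter, 0 passed an adjusted p of 0.05 or a p of 0.005, and 4 (5.19%) were at an unadjusted p under 0.05, against 4.30% of all genes. The median log2 fold change was 0.04. Of the 7 synaptotagmin genes outside the 10, 5 passed the filter and 0 had a p under 0.05. They were expressed at low levels, from 0.972 CPM for Syt10 to 14.5 CPM for Syt6, with Syt9 at 5.17, Syt12 at 9.05 and Syt14 at 11.4 CPM, and their genotype log2 fold changes ran from -0.10 ± 0.21 for Syt12 to 0.27 ± 0.29 for Syt6 (SE). Syt8 had at most 3 reads and was at 0 in 29 of 31 mice, and Syt15 had at most 16 reads.

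Of the dense-core vesicle proteins, the class of cargo and processing enzymes on whose vesicles Syt4 is found, all 17 passed the filter and 1 had an unadjusted p under 0.05, in the higher direction. Pam, which amidates neuropeptides, averaged 68.1 CPM in WT and 80.5 CPM in CYFIP1 OE, a log2 fold change of 0.24 ± 0.09 (SE, edgeR adjusted p = 0.999), and the WT mean was exceeded by 13 of 15 CYFIP1 OE mice. Ptprn, a dense-core vesicle membrane protein, was at 0.24 ± 0.13 and the carboxypeptidase Cpe at 0.19 ± 0.11 (SE, edgeR adjusted p = 0.999 for both). The median of the list was 0.06.

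Of 30 SNAREs and fusion factors, 29 passed the filter and 2 had an unadjusted p under 0.05, in opposite directions. Stx2, a plasma membrane syntaxin, was at 14.3 ± 3.89 CPM in WT and 10.6 ± 3.31 CPM in CYFIP1 OE (SD), a log2 fold change of -0.42 ± 0.16 (SE, edgeR adjusted p = 0.999), and the WT mean was exceeded by 1 of 15 CYFIP1 OE mice. Vamp4, a SNARE of the Golgi and endosomes, was at 35.1 ± 6.16 and 39.9 ± 2.33 CPM, with 0.18 ± 0.08 (SE, edgeR adjusted p = 0.999) and 14 of 15 mice above. Snap47 followed at 0.21 ± 0.11 (SE, same adjusted p).

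Of 14 synaptic vesicle proteins, all passed the filter and 1 had an unadjusted p under 0.05. This was Syngr1, a vesicle membrane protein, at 109 ± 23.3 CPM in WT and 128 ± 23.3 CPM in CYFIP1 OE (SD), a log2 fold change of 0.23 ± 0.10 (SE, edgeR adjusted p = 0.999), with 13 of 15 mice above the WT mean. Next were Rab3c at 0.18 ± 0.10 and Rab3b at -0.17 ± 0.13 (SE). Of 15 other proteins with tandem C2 domains, 12 passed the filter and 0 had an unadjusted p under 0.05. The smallest p values there belonged to Sytl2 at -0.34 ± 0.18, Esyt1 at -0.45 ± 0.29 and Doc2b at 0.16 ± 0.16 (SE, edgeR adjusted p = 0.999 for each).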

How the data were processed

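The authors mapped QuantSeq reads with STAR to GRCm38, collected metrics with Picard and MultiQC and quantified genes with Salmon. The deposited values are expected counts (estimated counts that carry decimals and were not normalized), 1 table for each mouse, for 48709 Ensembl identifiers, of which the GENCODE annotation of GRCm38 named 48349. Each mouse was a separate animal and 1 replicate. After rounding to integers, a gene was kept if 20% or more of the mice had 10 or more reads. edgeR 4.0.16 (R 4.3.3) was run with TMM, quasi-likelihood tests (two-sided), the terms sex, line and genotype, and Benjamini-Hochberg adjustment over all genes tested. The interaction of genotype and line was added for that test. DESeq2 1.42.0 and sva 3.50.0 served in alternatives. The authors removed mice with a connectivity Z-score under -2 and used 5 sequencing components as covariates. Here the mouse was kept, and 5 surrogate variables stood in for the components in an alternative. Depth was 5286708 to 8685308 counts per mouse, so that genes with few reads carry counting error as well.

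Marker scores used log2 CPM with a prior count of 2 and permutation tests with 100000 resamples (numpy 2.4.6, scipy 1.17.1). The steps were tested on simulated data. The members, gene lists and markers were chosen with earlier results of these data known. Named were all members, up to 3 genes per pathway list with the smallest genotype p (with any at an adjusted p under 0.05 or a p under 0.005), and the genes most and least like Syt4 in r. Neighbours of the other members, the 18-mouse subset by name prefix and the added marker covariates are outside this rule, the last of these chosen after the data were seen. Protein and promoter sequences were not used here.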

Additional observations from a re-analysis of the deposited data

Results flagged for a closer look

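In each of the 4 groups of genotype and line (7 or 8 mice), the highest and the lowest mouse of every member was compared with the rest by Dixon's ratio. Of the 40 combinations of gene and group, 6 held a mouse beyond the 95% critical value, where chance gives about 1 in 20, or 2. That chance figure assumes normal, independent values, whereas untransformed CPM of related genes in the same mice was used. The 2 counts therefore cannot show an excess. All of those flagged were the highest mouse of their group. For Syt4, a female CYFIP1 OE mouse of the line labelled 1, aged 77 days, was at 212 CPM, with the next at 152 CPM. The mouse of low connectivity (Z-score -4.74), a CYFIP1 OE male of line 3, was the highest for Syt7, at 351 CPM against 194, and for Syt17, at 81.0 CPM against 28.3. The same mouse had the highest summed excitatory neuron markers of all mice, at 7000.3 CPM, and summed striatal markers of 317 CPM. A female WT mouse of the line labelled 1 was the highest of its group for Syt1, at 1336 CPM against 1072, and for Syt17, at 58.9 CPM against 21.7. For Syt11, a male WT mouse of the line labelled 3 was at 903 CPM against 801. Whether the makeup of these punches accounts for the values was not tested.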

How the results depend on the processing

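The log2 fold change of Syt4 minus the median of the 9 paralogs, 0.31, ranged from 0.22 (line labelled 1 only) to 0.43 (line labelled 3 only) over 13 alternatives, and that of Syt4 itself from 0.27 (5 surrogate variables) to 0.42 (name groups with both genotypes). All of them used the mice on which Syt4 was chosen, or a part of those mice, and so do not test its difference. The alternatives with marker scores as covariates and the one without the name group of the mouse of low connectivity were chosen after seeing the data. The count of pathway genes with a genotype p under 0.005 went from 0 to 1 with 5 surrogate variables (Cplx2), in the name groups with both genotypes (Cplx3) and in the line labelled 3 only (Stx2). For line, sex and interaction, 0 members passed an adjusted p of 0.05 under each alternative. The interaction of Syt13 ranged from -1.30 to -0.46 (adjusted p from 0.159 to 0.999), lowest in size with 5 surrogate variables, where the cause was not tested, and that of Syt3 from 0.24 to 0.81. Without the mouse of low connectivity 35 relations to marker scores were called, 29 of them shared with the 38, and the adjusted p of Syt4 with the pan-neuronal score was 0.115. Replicate numbers were given in accession order and only name mice, so that no fit used them as a block. The fit with the name group as a term (18 mice, all but 1 group of the line labelled 3) compared genotypes within groups.

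Line, name prefix and age overlap in these mice, 5 of 10 name groups held both genotypes, and no sequencing batch was given in the labels. Syt2 and Syt17 reach 14 and 16 reads at their lowest, where counting error is large. The human transgene was not counted.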
